A study of Homo sapiens with 4 samples.

Results

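The transcripts described here are 10 secreted chemokines and inflammatory cytokines: CXCL8, CXCL1, CXCL2, CXCL3, CCL2, CCL20, IL1A, IL1B, IL6 and LIF. They were taken by gene symbol out of the 26255 symbols listed, and all 10 were found. Expression was measured by RNA sequencing in MIA PaCa-2 and PSN-1, established human epithelial cell lines from pancreatic tumour tissue. Each line was transfected either with a synthetic mimic of miR-4800-3p, to overexpress that microRNA, or with a negative control oligonucleotide of scrambled sequence, and the question was which messenger RNAs the microRNA targets. All 4 groups received an oligonucleotide, and no untransfected cells are described. The sources used here do not give the dose or the time after transfection. Each of the 4 groups had 1 library, so a value has no repeat other than the second line.

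Chemokines are small secreted proteins that draw leukocytes along a gradient. CXCL1, CXCL2, CXCL3 and CXCL8 (interleukin 8) act on neutrophils through the receptors CXCR1 and CXCR2, CCL2 draws monocytes through CCR2, and CCL20 draws CCR6-bearing lymphocytes and dendritic cells. IL1A and IL1B are the ligands of the interleukin 1 receptor, and IL6 and LIF signal through receptor complexes that share the chain IL6ST (gp130). Most of these genes are known targets of NF-kB, many together with AP-1 and C/EBP factors, and their messenger RNAs are short-lived, in part through AU-rich elements in the 3' untranslated region. Pancreatic carcinoma cells are known to make several of them, IL1A and CXCL8 among them.

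The sequences behind these groups are shown first: the seed of the transfected microRNA, and the stretch before the start of the 4 CXC genes and of IL6, where NF-kB sites can lie. The mature miR-4800-3p is given as RefSeq lists it (GRCh38.p14), with its seed, bases 2 to 8, in capitals.
hsa-miR-4800-3p: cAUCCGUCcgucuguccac
The matching sites, GACGGAT and ACGGATA, were found neither in the 3' untranslated region nor upstream of it in the annotated transcript used for any of the 10 genes (GENCODE 29, GRCh38), against 1.96% of 18579 protein-coding genes with such a site in the 3' untranslated region. The absence says only that these letters are not in those transcripts.

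The 150 bases before the RefSeq start of the 4 CXC genes and of IL6 (GRCh38.p14, printed in the direction of transcription) follow, with matches to the 9-base NF-kB sequence GGAATTTCC or to the 10-base NF-kB consensus in capitals. GENCODE 29 places the start of CXCL8, CXCL2 and CXCL3 further upstream, inside the stretch shown, and that of the IL6 gene beyond it.
CXCL8, chr4:73740419-73740568, plus strand: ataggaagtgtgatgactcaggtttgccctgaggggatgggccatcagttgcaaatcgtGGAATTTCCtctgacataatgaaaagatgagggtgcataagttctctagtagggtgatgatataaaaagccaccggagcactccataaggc
CXCL1, chr4:73869243-73869392, plus strand: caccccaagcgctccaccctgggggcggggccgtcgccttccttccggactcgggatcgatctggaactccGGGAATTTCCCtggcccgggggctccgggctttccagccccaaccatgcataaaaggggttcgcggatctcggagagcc
CXCL2, chr4:74099196-74099345, minus strand: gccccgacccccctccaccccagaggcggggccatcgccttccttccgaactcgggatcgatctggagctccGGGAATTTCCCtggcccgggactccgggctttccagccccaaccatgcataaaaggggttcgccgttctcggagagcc
CXCL3, chr4:74038690-74038839, minus strand: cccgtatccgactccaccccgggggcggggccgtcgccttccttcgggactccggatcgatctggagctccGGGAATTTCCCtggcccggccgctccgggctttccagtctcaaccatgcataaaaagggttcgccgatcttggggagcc
IL6, chr7:22727050-22727199, plus strand: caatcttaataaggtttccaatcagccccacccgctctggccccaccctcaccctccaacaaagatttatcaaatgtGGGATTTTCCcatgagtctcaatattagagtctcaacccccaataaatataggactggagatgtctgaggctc

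The 4 CXC genes carried the same 9 letters at nearly the same distance, 91 to 83 bases before the start in CXCL8, 78 to 70 in CXCL1 and CXCL3, and 77 to 69 in CXCL2. GGAATTTCC, on either strand, was present in the 250 bases before the start in 4 of the 8 members that the RefSeq table holds and in 0.413% of 35116 starts of the same length. The wider NF-kB consensus, which overlaps it in CXCL1, CXCL2 and CXCL3, was present in 5 of the 8 (those 3, CCL20 and IL6) and in 9.96% of all starts. The AP-1 letters TGANTCA were found in CXCL8 and IL1A, 2 of the 8, and in 6.57% of all starts. A match is a description of the letters, not of factor binding. CCL2 and LIF had no entry in that table.

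AU-rich letters in the 3' untranslated region were denser in all 10 members than the median gene, as a description of sequence. The pentamer ATTTA occurred 10 times in the 721 bases of CXCL2 and 6 times in the 429 bases of IL6, or 13.9 and 14 per kb, against a median of 1.51 per kb over the 18579 genes. CXCL3 (10.4 per kb), IL1B (9.84), CXCL8 (7.19), CXCL1 (7.08), CCL20 (6.24) and IL1A (4.34) lay between, while CCL2 (2.66) and LIF (2.18) were nearest the median. The longer form TTATTTATT was present in 6 of the 10 (CXCL8, CXCL1, CXCL2, CXCL3, IL1B and LIF) and in 8.17% of all genes with a 3' untranslated region.

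Both lines were checked against epithelial markers and against markers of other cells. Keratins KRT8 and KRT18 were between 495 and 923 FPKM in all 4 libraries, but EPCAM was at 0.139 and 0.104 FPKM in MIA PaCa-2 against 28.4 and 24.1 FPKM in PSN-1 (mimic and scramble), KRT7 was listed at 0 in MIA PaCa-2, and CDH1 was at most 1.51 FPKM in any library. The leukocyte marker PTPRC (CD45) was listed at 0 in MIA PaCa-2 and at 0.423 and 0.433 FPKM in PSN-1. The steps between the lowest values gave an estimate of 12.6 to 15.9 fragments per kb of transcript for each FPKM, by library. Values are FPKM (fragments per kb of transcript, scaled for the number of fragments in the library), which can be compared between genes. The exact scaling is not given in the sources used here. A change is log2 of (mimic FPKM + 1) over (scramble FPKM + 1), which understates the change of low genes. Pairs of values for a line are given in the order mimic, scramble.

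The repertoire of MIA PaCa-2 was made of CXC chemokines and LIF, with the other 5 genes at or next to 0. In PSN-1 9 of the 10 genes were at 1 FPKM or more in both libraries, against 5 of 10 in MIA PaCa-2. The 4 CXC genes made up 98.9% of the members' summed FPKM in both MIA PaCa-2 libraries, and 70.6% (mimic) and 59.1% (scramble) in PSN-1. The sum over the 10 genes was 1383 FPKM in the MIA PaCa-2 mimic library and 436 FPKM in its scramble library, against 333 and 306 FPKM in PSN-1.

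**Figure D1:**
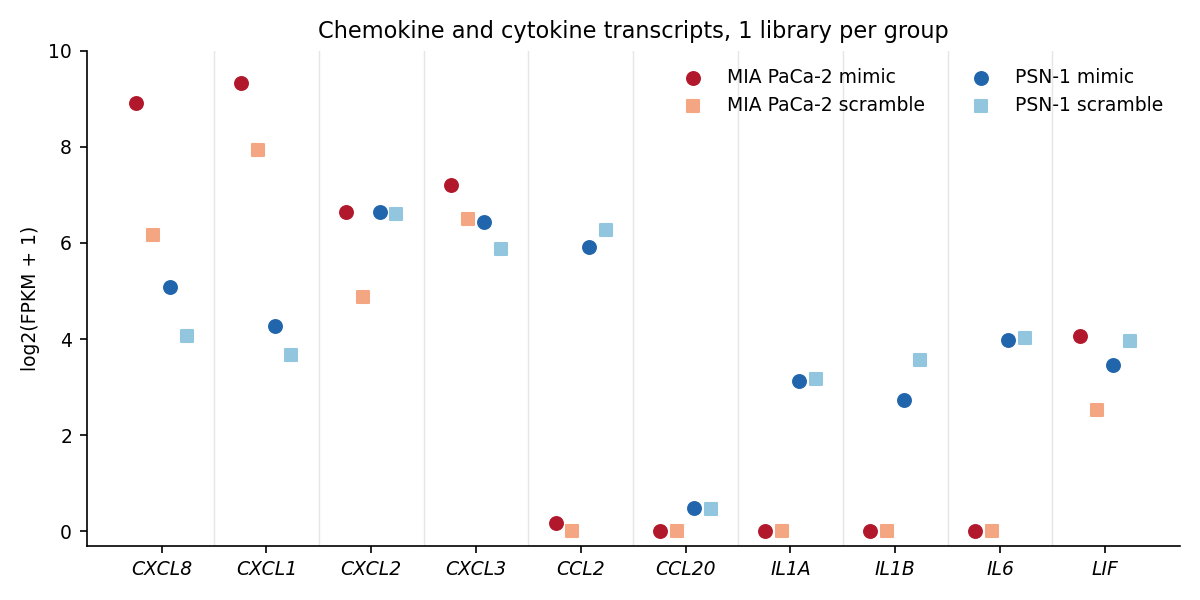
Level of each of the 10 genes, as log2(FPKM + 1), in each of the 4 libraries (circles: mimic, squares: scramble, red: MIA PaCa-2, blue: PSN-1; 1 library per point, no error). CCL20, IL1A, IL1B and IL6 lie at 0 in both MIA PaCa-2 libraries, and CXCL8 and CXCL1 are higher in both MIA PaCa-2 libraries than in either PSN-1 library.

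CXCL8 was at 478 FPKM in the MIA PaCa-2 mimic library, 70.6 in the MIA PaCa-2 scramble, 32.8 in the PSN-1 mimic and 15.6 in the PSN-1 scramble library. The mimic library was the higher of its pair in both lines, and both MIA PaCa-2 libraries were above both PSN-1 libraries. The ratio of mimic to scramble FPKM was 6.77 in MIA PaCa-2, against 2.1 in PSN-1, with log2 changes of 2.74 and 1.02. In fragments these levels correspond to an estimated 10237, 1351, 786 and 297, so the counting error of the log2 ratio was small (SE 0.042 in MIA PaCa-2, against 0.098 in PSN-1), without any error between cultures. Among all genes averaging 1 FPKM or more in the line, the change ranked 30 from the highest among the 11484 genes of MIA PaCa-2, while for PSN-1 its rank was 99 among 12233.

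CXCL1, which acts on the same neutrophil receptor, was at 642 and 243 FPKM in MIA PaCa-2 (mimic, scramble) and at 18.4 and 11.7 FPKM in PSN-1. It was the most abundant of the 10 genes in both MIA PaCa-2 libraries, and in PSN-1 it was the lowest of the 4 CXC genes. Its log2 change was 1.40 in MIA PaCa-2, against 0.61 in PSN-1 (counting SE 0.032 and 0.15). CXCL3 was at 147 and 89.4 FPKM in MIA PaCa-2 and at 85.0 and 57.6 FPKM in PSN-1. Its mimic library was 1.65 times the scramble library in MIA PaCa-2 and 1.47 times in PSN-1, the closest pair of ratios among the 5 genes measured in both lines, and neither passed 2-fold.

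CXCL2 was at 99.5 and 28.3 FPKM in MIA PaCa-2 and at 98.8 and 95.8 FPKM in PSN-1. The MIA PaCa-2 scramble library was the low one, and the other 3 libraries lay within 4 FPKM of each other. The log2 change was 1.78 in MIA PaCa-2, against 0.04 in PSN-1, where the counting SE of 0.055 exceeds the change. CXCL1, CXCL2 and CXCL3 are close copies: between 5.26% and 9.24% of the 50-base windows of their transcripts occur in another of the 3, so some reads can be shared, while none of those of CXCL8 do. The sources used here do not say how reads with several matches were counted.

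LIF, an interleukin 6 family cytokine, was at 15.6 (mimic) and 4.76 FPKM (scramble) in MIA PaCa-2, and at 10.1 (mimic) and 14.6 FPKM (scramble) in PSN-1. The order of mimic and scramble was thus opposite in the lines, with log2 changes of 1.53 and -0.49 (counting SE 0.11 and 0.080). LIF-AS1 overlaps LIF, and STEAP1B overlaps IL6, on the other strand. The library kit marks strand, but the sources used here do not give the strand setting of the counting, so reads of these partners may be included.

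Of the 5 members measured in MIA PaCa-2 (a mean of at least 1 FPKM), all 5 were higher with the mimic and 4 of them (CXCL8, CXCL1, CXCL2 and LIF) by 2-fold or more. Over all genes measured in that line, 1.31% were higher by 2-fold or more and 0.81% lower. The median log2 change of the 5 was 1.53, against 0.014 over all 11484 genes, of which 52.2% were above 0. In PSN-1 4 of 9 members were higher and 5 lower, with a median of -0.038 against -0.016 over 12233 genes, of which 47.6% were above 0. CXCL8 alone passed 2-fold there, upward, and no member passed it downward, against 0.85% of all genes higher and 0.777% lower. These are counts in 1 pair of libraries per line, with no test, for members chosen with earlier results of these data known.

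**Figure D2:**
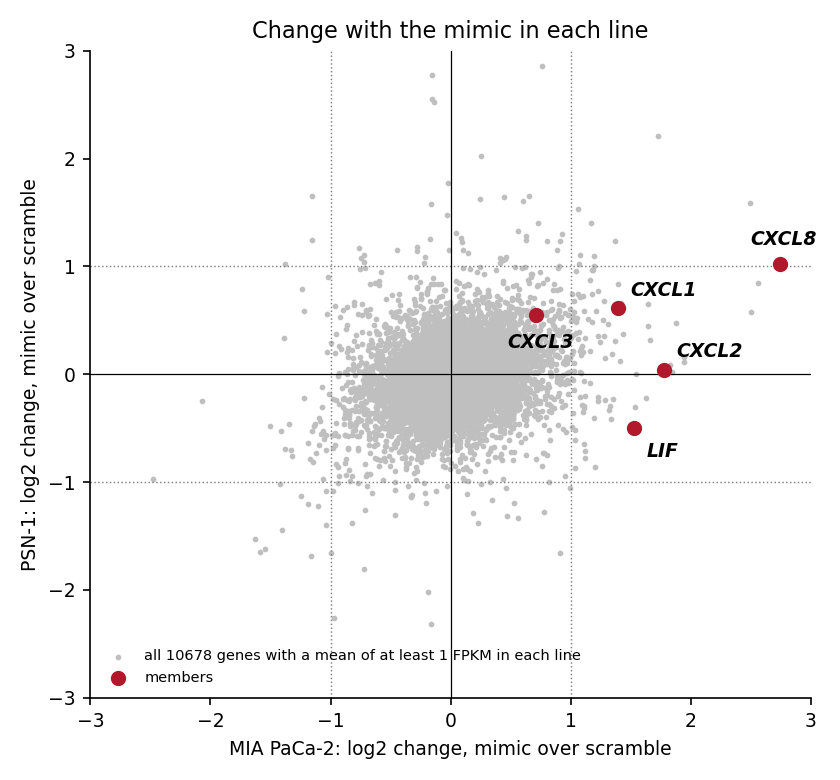
Log2 change with the mimic in MIA PaCa-2 (horizontal) and PSN-1 (vertical) for the 10678 genes averaging 1 FPKM or more in each line (grey; 24 genes beyond 3 in either direction are not drawn) and for the 5 members among them (red). Dotted lines mark 2-fold. CXCL8 is past 2-fold in both lines, CXCL2 is past it in MIA PaCa-2 with a change of 0.04 in PSN-1, and LIF has opposite signs.

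The change shared by the lines was tested with limma (cell line as a block, two-sided, Benjamini-Hochberg over 10678 genes). A gene's own spread there is the disagreement of the 2 lines on 1 residual degree of freedom. Limma moderates it (eBayes) toward the spread of other genes of similar level, and the SEs and p-values use the moderated spread. Of the 5 members tested 0 were called, against 0.0656% of all genes tested. At an unadjusted p under 0.05 there were 3, CXCL8, CXCL1 and CXCL3, all higher, beside 534 higher and 526 lower among all 10678 genes. The members were chosen with earlier results of these data known, so this contrast does not test them. CXCL8 had a mean log2 change of 1.88 (SE 0.38, adjusted p = 0.234 in limma) and was higher with the mimic in 2 of 2 lines. CXCL1 had a mean of 1.0 (SE 0.19, adjusted p = 0.219 in limma), and CXCL3 had a mean of 0.63 (SE 0.11, adjusted p = 0.179 in limma). CXCL2 (0.91, SE 0.38) and LIF (0.52, SE 0.45) had wider errors relative to their means. Over the 8 alternatives run the adjusted p of these 5 genes ranged from 0.0924 (CXCL3) to 1.0 in limma, so none was called in any of them. With separate cultures not repeated within a line, these p-values rest only on the spread between these libraries, in part that of other genes. The difference in change between the lines (MIA PaCa-2 minus PSN-1) was 2.02 for LIF, 1.74 for CXCL2, 1.72 for CXCL8, 0.78 for CXCL1 and 0.16 for CXCL3 on the log2 scale, and cannot be tested with 1 library per group.

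Of the 5 members measured in both lines limma called 3 different in level between the lines, a share near the 56.4% of all 12423 genes tested. The spread was moderated toward that of other genes as above. In limma with the oligonucleotide as a block, CXCL1 was lower in PSN-1 (log2 difference PSN-1 minus MIA PaCa-2 -4.66, SE 0.20, adjusted p = 0.000129 in limma), as was CXCL8 (-2.97, SE 0.40, adjusted p = 0.00288 in limma). The CXCL8 difference was -3.83 between the mimic libraries and -2.11 between the scramble libraries, a wider disagreement than its moderated SE reflects. CXCL3 was lower by a smaller step (-0.71, SE 0.11, adjusted p = 0.00419 in limma). Leaving the oligonucleotide out of the model ended that call (adjusted p = 0.108 in limma). CXCL2 (0.86, SE 0.40, adjusted p = 0.123 in limma) and LIF (0.42, SE 0.47, adjusted p = 0.475 in limma) did not pass the threshold. With such calls this common over all genes, the number called is not a result about these members. In the scramble libraries MIA PaCa-2 had 20.8 times the CXCL1 FPKM and 4.52 times the CXCL8 FPKM of PSN-1, while PSN-1 had 3.39 times the CXCL2 FPKM of MIA PaCa-2.

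The makeup of the CXC chemokines was different in each line. CXCL1 was 56.4% of the summed FPKM of the 4 genes in the MIA PaCa-2 scramble library and 47.0% with the mimic, and 6.46% and 7.83% in PSN-1. CXCL2 was 53.0% in the PSN-1 scramble library and 42.0% with the mimic, and 6.55% and 7.28% in MIA PaCa-2. The share of CXCL8 was higher in the mimic library in both lines, at 35.0% against 16.4% in MIA PaCa-2 and at 13.9% against 8.64% in PSN-1.

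**Figure D3:**
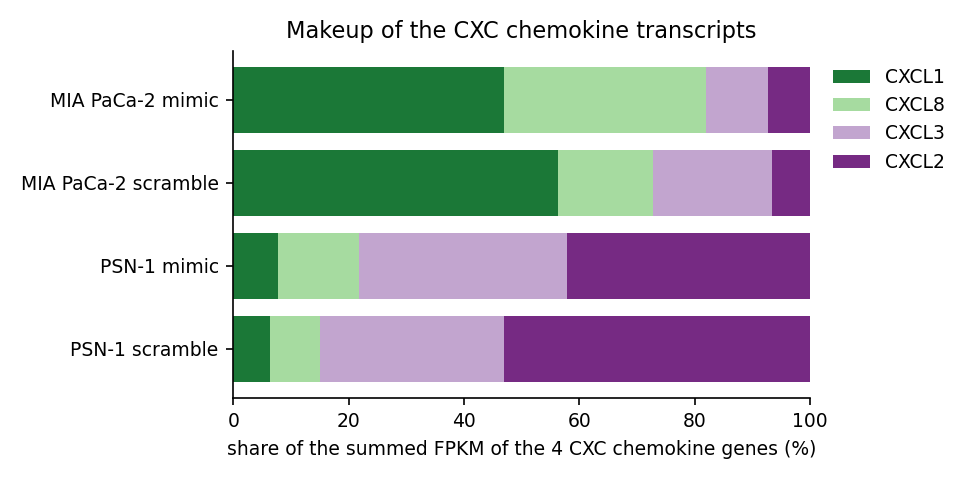
Share of CXCL1, CXCL8, CXCL3 and CXCL2 in their summed FPKM, in percent, for each of the 4 libraries (1 library per bar, no error). CXCL1 takes the widest part of both MIA PaCa-2 bars and CXCL2 of both PSN-1 bars, and the CXCL8 part is wider with the mimic in both lines.

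These 4 genes lie on chromosome 4 in one cluster of 9 protein-coding genes spanning 359 kb (chr4:73740506-74099293, GRCh38, GENCODE 29). CXCL8 (chr4:73740506-73743716) and CXCL1 (chr4:73869393-73871242) lie on the plus strand, and CXCL3 (chr4:74036589-74038807) and CXCL2 (chr4:74097035-74099293) on the minus strand. Of the other genes in between, CXCL5, a further ligand of CXCR2, was at 24.5 and 15.1 FPKM in MIA PaCa-2 (mimic, scramble) and at 0.0548 and 0.104 FPKM in PSN-1. CXCL6 was at 1.21 and 0.540 FPKM in MIA PaCa-2 and under 0.4 FPKM in PSN-1, PF4 was under 1 FPKM in every library, and the platelet genes PF4V1 and PPBP were listed at 0 in all 4. CXCL6 and PF4, platelet factor 4, were named for their place in the cluster. Genes listed at 0 thus lay between the 4 members in both lines.

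**Figure D4:**
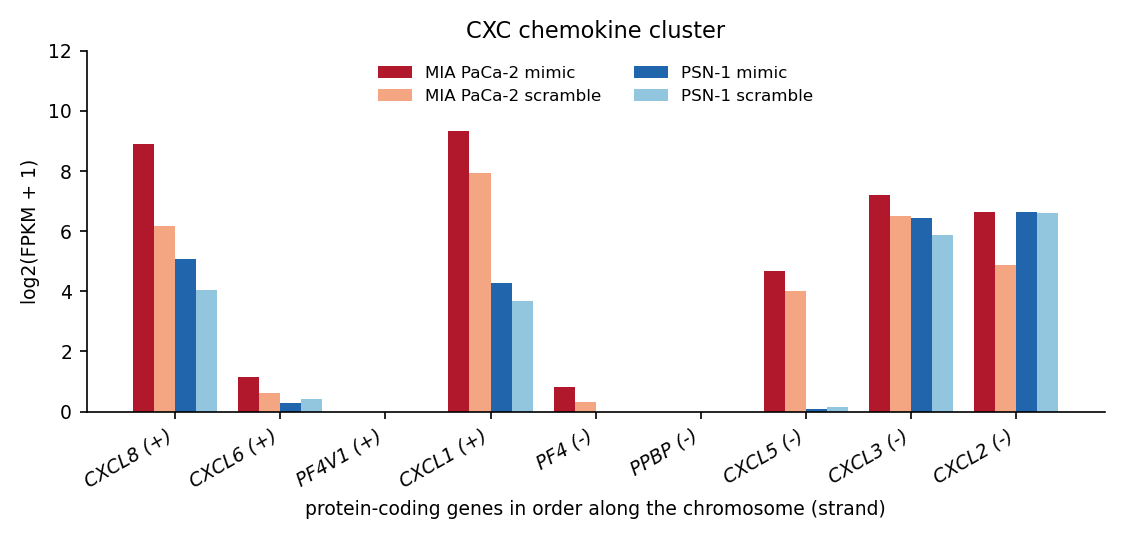
Level, as log2(FPKM + 1), of the 9 protein-coding genes of the CXC chemokine cluster in their order along the chromosome, with the strand in brackets, in each of the 4 libraries (1 library per bar, no error). CXCL8, CXCL1, CXCL3 and CXCL2 are at 11.7 FPKM or more in all 4 libraries, CXCL5 stands out in MIA PaCa-2 alone, and the other 4 genes are at 1.21 FPKM or less.

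CCL2, the monocyte chemokine on chromosome 17 (chr17:34255218-34257203, GRCh38), was in PSN-1 at 76.1 FPKM in the scramble and 59.4 in the mimic library. In MIA PaCa-2 it was at 0.129 FPKM in the mimic library, an estimated 0.993 fragments, and listed at 0 with the scramble, where a count of 0 allows up to 0.436 FPKM (3 fragments, counting error only). The PSN-1 change of -0.35 compares with a counting SE of 0.090. CCL20 was at 0.393 (mimic) and 0.372 FPKM (scramble) in PSN-1 and listed at 0 in MIA PaCa-2. Once the worth of 1 fragment in each library is taken into account, the PSN-1 values stood in the ratio 1.33, that of 4 fragments to 3, and the estimate from the transcript length gave 4.01 and 3.01 fragments. The limits of 0.330 and 0.369 FPKM that a count of 0 allows in MIA PaCa-2 lie close below the PSN-1 values, which rest on few fragments. A difference between the lines in CCL20 was not tested.

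The interleukins were measured in PSN-1 alone. IL6 was at 14.9 and 15.3 FPKM there (mimic, scramble), IL1A at 7.70 and 8.06 FPKM, and IL1B at 5.65 and 10.9 FPKM, and all 3 were listed at 0 in both MIA PaCa-2 libraries, where a count of 0 allows at most 0.178 FPKM for any of them. IL6 and IL1A differed between the PSN-1 libraries by less than their counting error (log2 changes of -0.038 and -0.058, SE 0.12 and 0.14). IL1B was lower with the mimic, at 0.521 times the scramble level (log2 change -0.83, counting SE 0.16), while its neighbour on chromosome 2, IL1A, was at 0.955 times. IL1B lies at chr2:112829751-112836903 and IL1A at chr2:112773915-112784590, both on the minus strand (GRCh38). The 4 members CCL2, IL1A, IL1B and IL6 entered the limma comparison of the lines only through their PSN-1 levels, so no test is given for them. Markers of other cells also differed between the lines. The summed FPKM of 5 endothelial markers was 7.16 to 8.06 in PSN-1 against at most 0.0273 in MIA PaCa-2. In PSN-1 KDR was at 6.5 and 5.43 FPKM and PECAM1 at 1.27 and 1.58 FPKM, while VWF, CDH5 and TEK were at most 0.176 FPKM. Of 8 fibroblast markers LUM was at 14.3 and 19.6 FPKM in PSN-1 and at 0 in MIA PaCa-2. Also higher in PSN-1 were COL1A1 (10.2 and 12.6 FPKM against 0 and 0.0824) and COL3A1 (36.1 and 45.6 against 7.03 and 7.72). So was PDGFRB (19.6 and 20.9 FPKM against 0.0510 and 0.0713). PDGFRA, DCN and THY1 were at most 1.38 FPKM in any library. COL1A2 went the other way, at 59.9 and 76.8 FPKM in MIA PaCa-2 against 0.0120 and 0 FPKM in PSN-1. The summed fibroblast markers overlapped between the lines, at 81.3 and 100.4 FPKM in PSN-1 against 67.0 and 84.8 FPKM in MIA PaCa-2. Most of the MIA PaCa-2 sum was COL1A2 alone. The 10 leukocyte markers summed to 45.0 and 44.2 FPKM in PSN-1 against 36.7 and 21.7 FPKM in MIA PaCa-2, most of it CD68. CD3E and CD163 were listed at 0 in all 4 libraries. Both samples are established cell lines, and which of their cells carried the markers found was not tested. Any relation of these markers to the cytokine levels was not tested either. In bulk RNA, fewer cells of a type and less RNA per cell cannot be told apart.

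By rank of level among the 10, the order in the PSN-1 scramble library was CXCL2, CCL2, CXCL3, CXCL8, IL6, LIF, CXCL1, IL1B, IL1A and CCL20. CXCL8 at 15.6, IL6 at 15.3 and LIF at 14.6 FPKM were neighbours within about 1 FPKM, which 1 library cannot order. In the MIA PaCa-2 scramble library the order was CXCL1, CXCL3, CXCL8, CXCL2 and LIF, with the remaining 5 listed at 0.

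The receptors through which the CXC chemokines and CCL2 act were not expressed at a level these libraries could show. CXCR1, CXCR2, CCR2 and the decoy receptor ACKR1 were listed at 0 in all 4 libraries, and the CCL20 receptor gene CCR6 was at most 0.472 FPKM. IL1R1, the signalling receptor of interleukin 1, was at 43.4 and 32.7 FPKM in MIA PaCa-2 and at 29 and 25.6 FPKM in PSN-1. Its partner chain IL1RAP was at 0.503 and 0.380 FPKM in MIA PaCa-2 against 30.8 and 33.6 FPKM in PSN-1, the decoy IL1R2 was at most 1.31 FPKM, and the receptor antagonist IL1RN at most 0.0512 FPKM. IL6ST, the signalling chain shared by IL6 and LIF, was at 11.4 and 11.9 FPKM in MIA PaCa-2 and at 99.4 and 115 FPKM in PSN-1. LIFR was at 20.9 and 22.3 against 29.3 and 29.2 FPKM, and IL6R was at 1.18 and 0.420 against 2.87 and 2.70 FPKM. None of the 3 receptor genes measured in MIA PaCa-2 or the 5 in PSN-1 passed 2-fold with the mimic.

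Of the 30 other chemokine genes 3 to 5 reached 1 FPKM in a given library and 16 to 21 were listed at 0. CXCL16, a membrane-anchored chemokine, was at 8.96 and 11.2 FPKM in MIA PaCa-2 and at 2.1 and 3.29 FPKM in PSN-1, and none of the 4 measured in either line passed 2-fold. Of the 30 other cytokine genes 6 were measured in MIA PaCa-2 (4 higher, 2 lower with the mimic, median log2 change 0.20), against 14 in PSN-1 (5 higher, 9 lower, median -0.21). MIF, the most abundant, was at 909 and 918 FPKM in MIA PaCa-2 and at 452 and 501 FPKM in PSN-1. CSF2 (GM-CSF) was at 40.2 and 58.5 FPKM in PSN-1 and listed at 0 in MIA PaCa-2, and CSF1 (M-CSF) was at 92.4 and 117 against 13.2 and 8.67 FPKM. CLCF1, like LIF a cytokine that signals through IL6ST, was at 11.8 (mimic) and 4.44 FPKM (scramble) in MIA PaCa-2, a log2 change of 1.23, and at 3.42 and 4.10 FPKM in PSN-1. IL11, of the same family, was past 2-fold in PSN-1 (7.18 against 2.69 FPKM, log2 change 1.15) and at 1.90 and 1.70 FPKM in MIA PaCa-2.

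Of 14 genes that process or restrain these cytokines, 7 were measured in MIA PaCa-2, 4 higher and 3 lower with the mimic (median log2 change 0.21). In PSN-1 11 were measured, 2 higher and 9 lower (median -0.16). The shares of all measured genes that were higher were 52.2% and 47.6%. CASP1, the protease that matures interleukin 1 beta, was listed at 0 in MIA PaCa-2 and was at 5.08 and 8.06 FPKM in PSN-1. Its adaptor gene PYCARD had 0 in both MIA PaCa-2 libraries against 3.72 and 4.69 FPKM, and GSDMD, the pore through which the cytokine leaves the cell, was at 0.0901 and 0.101 against 30.1 and 33.7 FPKM. CASP1, PYCARD and GSDMD were named after their values were seen. From the same list NLRP3 and CASP5 were at most 0.261 FPKM in any library. CASP4 was at 10.2 and 7.81 FPKM in MIA PaCa-2 and at 83.6 and 73.9 FPKM in PSN-1. CAPN2, a calpain subunit gene, was at 250 and 217 FPKM in MIA PaCa-2 and at 151 and 175 FPKM in PSN-1. SOCS1, a feedback inhibitor of cytokine receptor signalling, was at 17.6 and 5.43 FPKM in MIA PaCa-2, a log2 change of 1.53, and at 9.76 and 12.3 FPKM in PSN-1, and SOCS3 was at 12.1 and 19.5 against 136 and 142 FPKM.

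NF-kB genes were higher with the mimic in 8 of 12 in MIA PaCa-2 (median log2 change 0.17), against 10 of 12 in PSN-1 (median 0.52), beside medians over all genes of 0.014 and -0.016. NFKBIA, the inhibitor that NF-kB itself induces, was at 85.5 and 56.0 FPKM in MIA PaCa-2 and at 268 and 177 FPKM in PSN-1. BIRC3, an NF-kB-induced inhibitor of apoptosis, had log2 changes of 1.04 and 0.96, and TNFAIP3, the feedback protein A20, had 0.085 and 1.26, while TNIP1 had -0.17 and -0.49. The difference between these lists and the members was not tested, and the lists were chosen with earlier results of these data known. Other transcription factor genes that can induce these cytokines were higher in 8 of 11 in MIA PaCa-2 (median 0.45), against 10 of 11 in PSN-1 (median 0.50). The shares over all genes are those given above. CEBPB was at 49.0 and 13.1 FPKM in MIA PaCa-2 (1.83) and at 203 and 191 FPKM in PSN-1 (0.084), the AP-1 gene FOSL1 had 1.04 and 0.52, JUN had 0.45 and 1.07, ATF3 had 0.92 and 1.24, and FOS had -0.44 and 1.15.

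**Figure D5:**
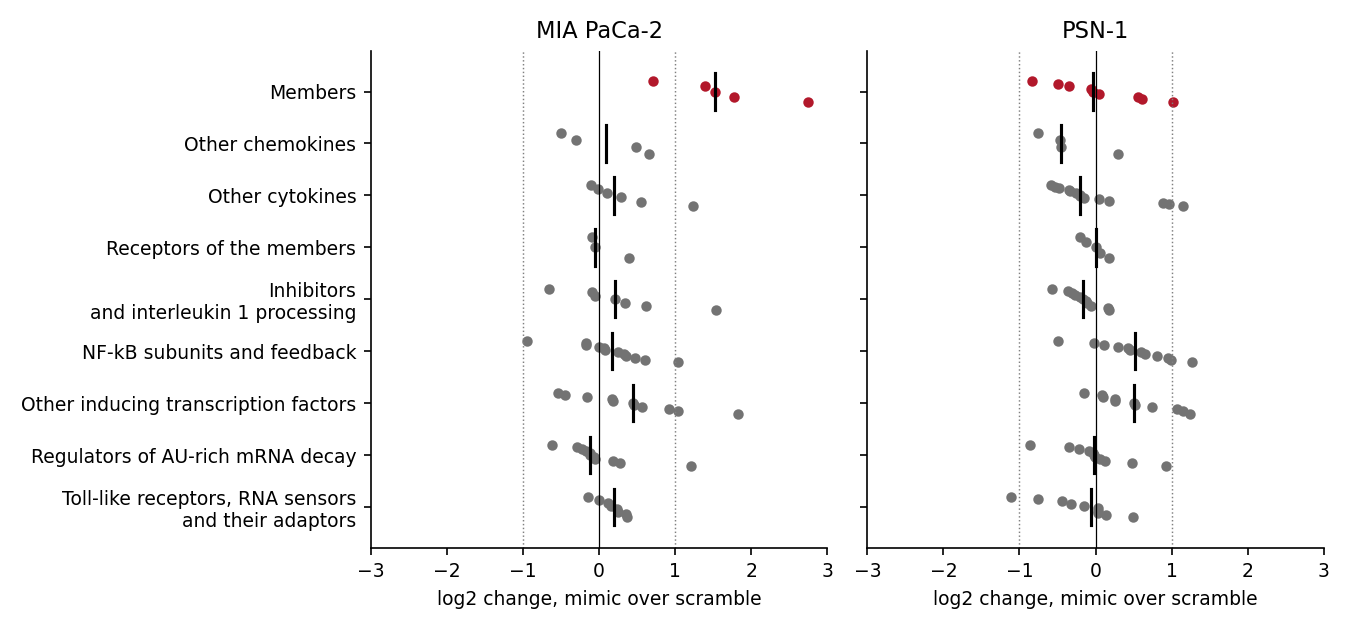
Log2 change with the mimic in MIA PaCa-2 (left) and PSN-1 (right) for the measured members (red) and the measured genes of 8 related lists (grey), with 1 point per gene and a black bar at each median; vertical offsets carry no value, and dotted lines mark 2-fold. The 5 members in MIA PaCa-2 all lie to the right of 0 with a median of 1.53, and the 9 in PSN-1 lie on both sides with a median of -0.038.

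Of the 11 regulators of AU-rich messenger RNA decay, 3 were higher and 8 lower in MIA PaCa-2 (median -0.12) and 4 higher and 7 lower in PSN-1 (median -0.025). ZFP36, or tristetraprolin, which speeds the decay of such messages, was at 71.4 and 58.6 FPKM in MIA PaCa-2 and at 183 and 95.5 FPKM in PSN-1. Its relative ZFP36L1 was at 245 and 106 FPKM in MIA PaCa-2, a log2 change of 1.20, and at 29.5 and 54.3 FPKM in PSN-1 (-0.86), opposite signs in the lines as for LIF. Among 13 Toll-like receptors, cytosolic RNA sensors and their adaptors, none of the 8 measured in MIA PaCa-2 passed 2-fold, and in PSN-1 1 of 10 did, TLR4, the receptor for bacterial lipopolysaccharide and not for nucleic acid, at 2.43 against 6.41 FPKM (-1.11). Of those measured, 6 were higher and 2 lower in MIA PaCa-2 (median 0.19), against 5 higher and 5 lower in PSN-1 (median -0.062). EIF2AK2 is a kinase that responds to double-stranded RNA. It was at 25.4 and 22.7 FPKM in MIA PaCa-2 and at 32.1 and 31.2 FPKM in PSN-1. DDX58 had log2 changes of 0.35 and 0.49 and IFIH1 had 0.23 and 0.14. MYD88 had -0.15 and -0.32 and MAVS had -0.0051 and -0.45. CCL5 was at 1.57 and 0.842 FPKM in MIA PaCa-2 and at 1.46 and 0.385 FPKM in PSN-1. IFNB1 was listed at 0 in all 4 libraries. DDX58, IFIH1, MAVS, CCL5 and IFNB1 were named after their values were seen. Whether the cells responded to the transfected RNA was not tested. Limma called 0 of the 57 tested genes of the 8 lists for the change shared by the lines, and the smallest adjusted p in limma was 0.0912. At an unadjusted p under 0.05 there were 15 upward and 2 downward changes, beside 534 upward and 526 downward among all 10678 genes. The lists were chosen with earlier results of these data known, so this contrast does not test them.

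The genes most like each member over the 4 libraries were found by the smallest distance between log2(FPKM + 1) profiles with each gene's mean removed, among 9235 genes averaging 5 FPKM or more. For CXCL8 the nearest was HMOX1, heme oxygenase 1 (distance 0.28, at 568, 95.7, 45.7 and 24.9 FPKM in the order MIA PaCa-2 mimic and scramble, PSN-1 mimic and scramble), and the next, KCNK5, was much further away (1.14). DNER was nearest to CXCL1 (0.27), with CXCL5 the third (0.83). The nearest to LIF was SOCS1 (0.32), followed by GADD45A (0.33). CXCL2 was nearest to NFE2L3 (0.34) and CXCL3 to DDX10 (0.069). CCL2 lay nearest to PPP1R14A and VCAM1 (0.19 each) and IL6 to MTUS1 (0.050), all 3 of them at or under 0.142 FPKM in MIA PaCa-2. With 4 libraries many genes share such a profile, and the distances are a description with no test.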

How the data were processed

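Each of the 4 libraries was a group of its own by cell line and oligonucleotide, as the titles name them. The kits were miRNeasy for RNA and TruSeq stranded mRNA for libraries, per the labels' protocols. Per the file headers, the authors deposited 1 FPKM value for each gene symbol. The build hg19, Cuffdiff 2.2.1 and TopHat2 2.1.1 come from the submitters' processing notes, which give no roles here; the sources used here do not give the annotation, strand setting or scaling.

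Changes used a pseudocount of 1 FPKM and genes averaging 1 FPKM or more in the line. With R 4.3.3, limma 3.58.1 (a trended eBayes fit, adjusted p under 0.05) was fitted over all genes and tested on simulated data. The 10 genes and the 8 lists of related genes (132 genes) were chosen with earlier results of these data known. Related genes were named if past 2-fold in a line, if among the 3 highest of their list at a mean of at least 5 FPKM, or if receptor or inhibitor partners of a member; not all that qualify are printed. The 3 nearest profiles were found for members with a mean of at least 5 FPKM, and not all are reported here.

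Depth was estimated from the most frequent ratio of values under 0.3 FPKM between libraries and, for its absolute scale, from 1053 values of genes with 1 transcript of 1000 bases or more, of which 342 lay in the modal bin, taken as 1 fragment of an assumed 200 bases. Fragment numbers, counting SEs and limits at 0 are estimates from it and from GENCODE transcript lengths, and cover counting error only. Sequences were joined by symbol: 10 members matched GENCODE 29 and 8 the RefSeq starts, both on GRCh38, which is not the files' hg19. Python 3.11.15, numpy 2.4.6, pandas 2.3.3 and matplotlib 3.10.9 were used.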

Additional observations from a re-analysis of the deposited data

Results flagged for a closer look

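Among the members and the related genes that qualified to be named, 11 measured in both lines had changes of opposite sign with the mimic. The share of all genes with opposite signs was not counted, so this number is not a result about these genes. Some of the signs belong to changes next to 0, as for NFKB2 in MIA PaCa-2 (-0.0028) and LIFR in PSN-1 (0.0033). The difference between the lines was not tested for any of them, since each line has 1 pair of libraries. LIF differed by 2.02 on the log2 scale (MIA PaCa-2 minus PSN-1: 1.53 against -0.49). ZFP36L1 differed by 2.06 (1.20 against -0.86). SOCS1 differed by 1.84 (1.53 against -0.31), and CLCF1 by 1.44 (1.23 against -0.21). FOS differed in the other direction, by -1.59 (-0.44 against 1.15). CSF1 differed by 0.89 (0.55 against -0.33). Smaller differences were those of CAPN2 (0.42), IRAK1 (0.40), NFKB2 (-0.45), HNRNPD (-0.17) and LIFR (-0.095).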

How the results depend on the processing

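All 70 recomputed changes of single members within a line kept their direction and their side of 2-fold under the 5 alternatives for pseudocount, filter and scaling, and the counts of members past 2-fold were the same in each. The filter alternatives (none, or 5 FPKM) only choose genes and leave each change as it was. Their values could not move, so only the pseudocount and scaling alternatives bear on the changes. CXCL8 in PSN-1 is near the threshold, at 1.02 to 1.06. For the 5 members measured in both lines, the recomputed limma values stayed on their side of the threshold with 1 exception. That was CXCL3 between the lines (adjusted p = 0.108 in limma with no replicate block). CCL2, IL1A, IL1B and IL6 are left out here, since only their PSN-1 levels brought them into the comparison of the lines. Genes past 2-fold over the whole table moved with a pseudocount of 0.1 FPKM to 249 higher and 178 lower in MIA PaCa-2 (from 151 and 93) and 176 higher and 173 lower in PSN-1 (from 104 and 95). A filter at 5 FPKM gave 54 lower in MIA PaCa-2, and 59 higher and 61 lower in PSN-1, from fewer genes. Scaling each library to the same total (TPM) gave 174 lower in MIA PaCa-2, and 178 higher and 150 lower in PSN-1. Limma's calls for the shared change, 6 higher and 1 lower, became 0 and 0 with no filter, 21 and 14 with median-ratio scaling and 13 and 10 with TPM scaling. With the filter at 5 FPKM 2 were lower, with short non-coding genes left out 5, and without the trend 0. The cause of these moves was not tested. Without the cell line as a block (no replicate block) 0 genes were called in limma, and 28 upward and 26 downward changes had an unadjusted p under 0.05; the pairing is by cell line, since the labels carry no replicate numbers. Leaving out a library was not possible in limma, because 3 libraries leave no residual degree of freedom in the model. Depth limits CCL20 in PSN-1, at an estimated 4.01 and 3.01 fragments, and CCL2 in MIA PaCa-2, at 0.993 and 0.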
